A study of Mus musculus with 7 samples.

Results

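The 10 genes described here mark dendritic cells, and they were followed in the lungs of bleomycin-challenged mice with and without hyperbaric oxygen (HBO). They are *Xcr1*, *Clec9a*, *Batf3*, *Irf8*, *Cd209a*, *Flt3*, *Zbtb46*, *Ccl22*, *Fscn1* and *Siglech*, chosen by name from the 55401 genes of the count table. All 10 passed the filter on low counts and were among the 17465 genes tested. The RNA came from right lung lobes, with 1 library for each of 4 mice given bleomycin alone (BLM) and 3 mice given bleomycin and HBO (BLM+HBO). All 7 were male C57BL/6 mice, 6 to 8 weeks old, and bleomycin, a cytotoxic antibiotic that injures and scars the lung, was instilled in every one of them. BLM+HBO mice breathed pressurised oxygen at 2.5 ATA for 90 min per day on 14 days, starting on day 7, and lungs were taken from both groups on day 21. BLM mice spent the same time in the chamber without pressurised oxygen according to the sample records, but were left untreated according to the supplementary methods, and this difference was not settled. Saline-instilled mice and uninjured mice given HBO were not analysed here, so the comparison is of HBO on an injured lung. Mice that lost too little weight after bleomycin had been left out by the authors. Because whole tissue was sequenced, fewer cells of a type and less RNA per cell cannot be told apart.

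Dendritic cells take up antigen in the lung, carry it to the draining lymph node and show it to T cells. Conventional type 1 cells (cDC1) take up dead cells and present their antigens to CD8 T cells, type 2 cells (cDC2) mainly prime CD4 T cells, and plasmacytoid cells (pDC) make type I interferon. The conventional lineages depend on FLT3 ligand, and on maturation they turn on a shared programme of migration and chemokine genes. In this list, *Xcr1*, *Clec9a*, *Batf3* and *Irf8* belong to cDC1, and *Cd209a* to cDC2 and monocyte-derived cells. *Flt3* belongs to dendritic cells and their precursors, *Zbtb46* to the conventional lineage, *Ccl22* and *Fscn1* to mature cells and *Siglech* to pDC. Some are made elsewhere in the lung too, since *Irf8* is also expressed in B cells and macrophages, *Zbtb46* in endothelium and *Fscn1* in several stromal cells.

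Counts summed to between 18157161 and 26365969 per library. Each library was counted as 1 replicate, and no pair looked like a library deposited again. The lowest chi-square per gene was 22.1 within a group and 13 between groups, for BLM 4 and BLM+HBO 2, so the closest pair crossed the groups. On the first principal component (37.3% of the variance) BLM+HBO 2 lay at -0.996, beside the highest BLM mouse at -6.08, while BLM+HBO 1 and 3 lay at 54.8 and 37.8. Levels are given as CPM, the counts scaled to a common TMM-normalized library size. A gene was called when edgeR's quasi-likelihood test gave P below 0.05 before adjustment and the fold change exceeded 1.5, the limits the study used.

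*Clec9a*, *Cd209a*, *Ccl22* and *Siglech* were higher in BLM+HBO at these thresholds, by between 1.58-fold (*Clec9a*) and 2.45-fold (*Siglech*), and none of the 10 genes was called lower. The 4 called genes were 1 each of the cDC1, cDC2, mature and pDC markers. The share called higher was 40.0%, against 3.40% of all tested genes (594 of 17465), while 2.89% of all genes were called lower and 6.29% were called in either direction. Of the 10, 8 had a positive and 2 a negative log2 fold change, with a median of 0.44 beside 0.01 over all tested genes. None of the 10 passed an adjusted P of 0.05 (Benjamini-Hochberg over all genes, edgeR), nor did any other gene, while 10.7% of all genes and 4 of the 10 had an unadjusted P below 0.05. DESeq2 put none of the 10 below an adjusted P of 0.05 either (0.733% of all genes), with 5 of the 10 past the unadjusted thresholds (6.72% of all genes). For none of the 10 were the groups free of overlap, where 8.77% of all tested genes had groups that did not overlap, 4.05% with BLM+HBO higher and 4.72% with it lower. The genes were read in the same 7 mice, so their values are not independent of each other.

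**Figure D1:**
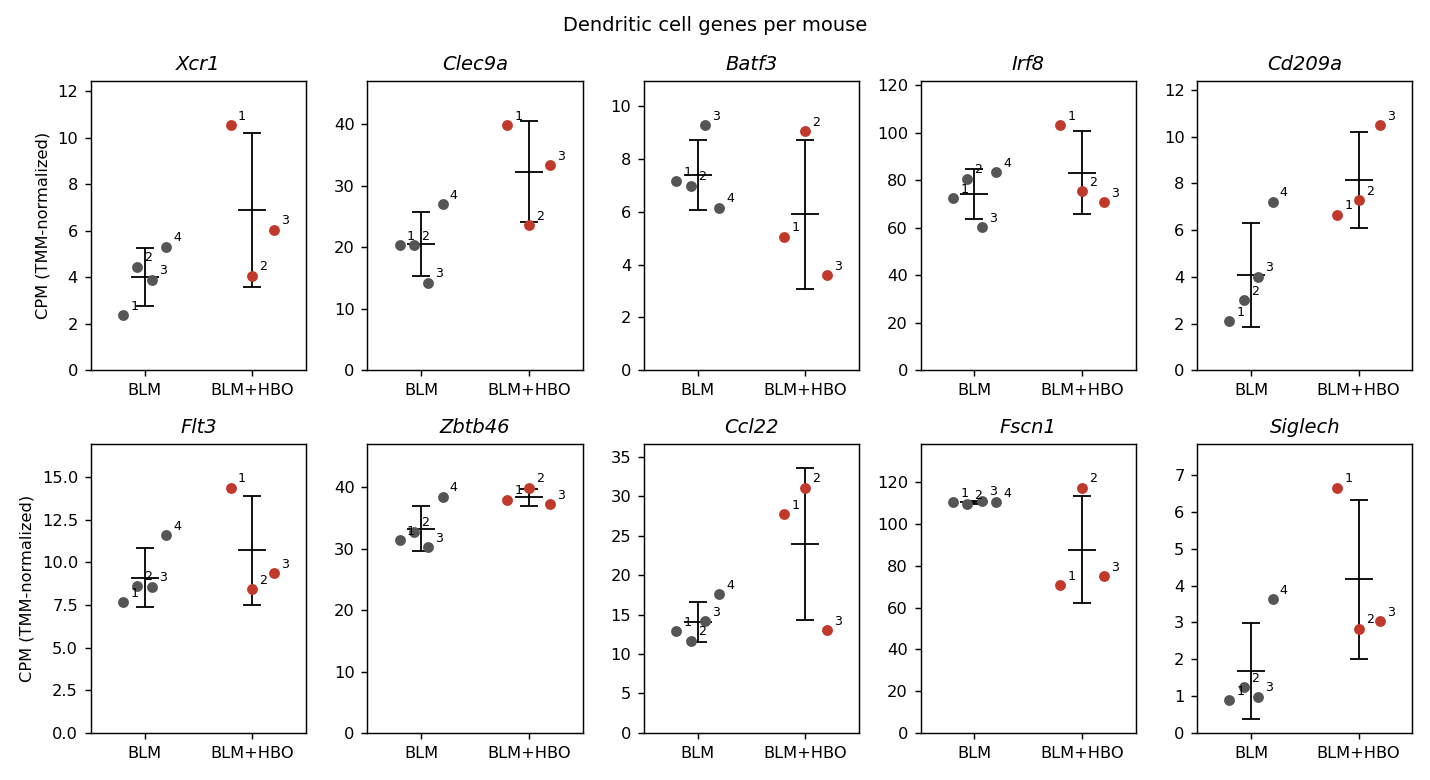
CPM of the 10 dendritic cell genes in each mouse, with mouse numbers beside the points, BLM in grey (n = 4), BLM+HBO in red (n = 3), a long bar at the group mean and whiskers of 1 SD. BLM+HBO 1 is the highest of the 7 mice for *Xcr1*, *Clec9a*, *Flt3*, *Siglech* and *Irf8*, and the groups overlap for every gene.

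The upstream sequence of 3 of the genes called higher is printed here so that the starts of the cDC1, cDC2 and pDC genes can be compared, with that of *Flt3l*, the ligand of FLT3, which is described further on. Each is the 250 bases before the start of transcription, 5′ to 3′ on the strand of the gene, from RefSeq on GRCm38.p6. *Clec9a* lies at chr6:129408612-129408861 on the plus strand, *Cd209a* at chr8:3748985-3749234 on the minus strand, *Siglech* at chr7:55767934-55768183 on the plus strand and *Flt3l* at chr7:45136433-45136682 on the minus strand. Capitals mark a motif match.
Clec9a: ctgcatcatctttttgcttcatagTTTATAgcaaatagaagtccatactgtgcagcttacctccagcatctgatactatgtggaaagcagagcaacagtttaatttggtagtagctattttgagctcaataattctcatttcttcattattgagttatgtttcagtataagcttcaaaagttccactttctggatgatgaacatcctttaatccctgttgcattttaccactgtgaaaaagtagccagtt
Cd209a: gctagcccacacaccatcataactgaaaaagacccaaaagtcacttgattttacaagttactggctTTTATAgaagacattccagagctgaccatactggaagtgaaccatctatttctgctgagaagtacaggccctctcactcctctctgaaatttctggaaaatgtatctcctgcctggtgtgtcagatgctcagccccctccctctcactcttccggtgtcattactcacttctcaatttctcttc
Siglech: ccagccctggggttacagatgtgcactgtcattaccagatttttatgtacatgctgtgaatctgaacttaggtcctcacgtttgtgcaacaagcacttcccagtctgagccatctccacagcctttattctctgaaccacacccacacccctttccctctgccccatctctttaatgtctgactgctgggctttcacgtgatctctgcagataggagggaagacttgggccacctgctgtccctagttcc
Flt3l: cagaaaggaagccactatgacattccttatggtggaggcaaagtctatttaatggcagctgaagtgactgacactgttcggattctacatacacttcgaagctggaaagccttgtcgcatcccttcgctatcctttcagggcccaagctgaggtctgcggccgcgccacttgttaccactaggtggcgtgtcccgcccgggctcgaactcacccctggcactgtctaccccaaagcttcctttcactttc

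Both strands of these windows were searched in all 10 genes and *Flt3l* for TATAAA, the TATA box (held by 12.4% of 32851 promoters of this length), and for TGANTCA, an AP-1 site (6.75%), which do not overlap each other in any window printed. TATAAA was found on the opposite strand in *Clec9a* (226 to 221 bases before the start), *Cd209a* (184 to 179) and *Xcr1* (160 to 155), and on the gene's own strand in *Fscn1* and *Irf8*, in both at 31 to 26 bases before the start. *Zbtb46* held an AP-1 match, TGACTCA, 61 to 55 bases before the start used here, which is an internal one. The windows of *Zbtb46* and *Batf3* lie inside the gene spans given below, and those of *Ccl22*, *Fscn1* and *Siglech* do so in part. Another window of *Irf8*, before an internal start, also lies inside its span and held neither motif. *Ccl22*, *Siglech*, *Flt3*, *Batf3* and *Flt3l* held neither set of letters in this window.

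Per length of transcript, the 10 genes spanned a wide range in BLM lungs. *Fscn1* had the highest level at 36.7 ± 0.242 RPKM, CPM per kilobase of exon (SD, n = 4), followed by *Irf8* at 10.5 ± 1.48 RPKM. *Clec9a* (6.21 ± 1.58 RPKM), *Ccl22* (6.05 ± 1.10 RPKM), *Batf3* (4.63 ± 0.832 RPKM) and *Zbtb46* (3.90 ± 0.430 RPKM) came next. The SD ranges of neighbours among these 4 overlapped, so their order is not set by these mice. *Cd209a* (2.57 ± 1.41 RPKM) overlapped both *Zbtb46* and *Flt3* (1.47 ± 0.277 RPKM). *Xcr1* (0.900 ± 0.279 RPKM) lay just under *Flt3*, and *Siglech* (0.498 ± 0.386 RPKM) overlapped *Xcr1* at the bottom. *Fscn1* and *Irf8*, which other lung cells also make, thus stood above every surface receptor of the list. In BLM+HBO the ends of the order were the same, with *Fscn1* at 29.1 ± 8.54 RPKM and *Siglech* at 1.23 ± 0.636 RPKM (SD, n = 3).

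Among the cDC1 genes, *Clec9a* and *Xcr1* had higher mean levels in BLM+HBO, with *Clec9a* called, and the transcription factors *Batf3* and *Irf8* were not called. *Clec9a* encodes DNGR-1, the receptor through which cDC1 sense the exposed actin of dead cells (ENSMUSG00000046080.17, GRCm38 chromosome 6, 129408862 to 129424763, plus strand). It was at 20.3, 20.3, 14.2 and 27.0 CPM in BLM 1 to 4 and at 39.8, 23.6 and 33.3 CPM in BLM+HBO 1 to 3. BLM+HBO 1 and 3 were above every BLM mouse, and BLM+HBO 2 fell below BLM 4, so the groups overlapped. The BLM mean was 20.4 ± 5.20 CPM (SD, n = 4) and the BLM+HBO mean was 32.3 ± 8.17 CPM (SD, n = 3). The gene was called, with a log2 fold change of 0.66 ± 0.23 (SE) and adjusted P = 0.423 by edgeR. Adjusted P by the other fits ran from 0.0855 to 0.802. The call held in 5 of the 7 fits with a mouse left out, and was lost without BLM 3 (log2 fold change 0.52) and without BLM+HBO 1 (0.48). Of its 100-base exon stretches, 97.5% occur in no other gene and the rest are shared with *Clec1b*, which overlaps it on the same strand over 184 bases.

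*Xcr1*, the receptor for XCL1 that is nearly restricted to cDC1 (ENSMUSG00000060509.5, chromosome 9, 123852315 to 123862029), was at 2.37, 4.45, 3.90 and 5.32 CPM in BLM and at 10.5, 4.07 and 6.04 CPM in BLM+HBO. BLM+HBO 1 stood well above all other mice, and BLM+HBO 2 lay inside the BLM range. A log2 fold change of 0.78 ± 0.37 (SE) did not pass the P threshold (adjusted P = 0.492 by edgeR, and 0.187 to 0.854 over the other fits). *Xcr1* was past the thresholds with DESeq2, with no filter on low counts, without BLM 4 (0.94) and without BLM+HBO 2 (1.04). The estimate was 0.34 without BLM+HBO 1. Reads were few, between 43 and 198 per mouse.

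*Batf3*, the AP-1 family factor needed to form cDC1 (ENSMUSG00000026630.9, chromosome 1, 191097847 to 191108945), was at 7.16, 6.99, 9.28 and 6.16 CPM in BLM and at 5.06, 9.05 and 3.60 CPM in BLM+HBO. Its values thus ran opposite to *Clec9a* in the same mice, since BLM+HBO 1 and 3 were the lowest of all 7 and BLM+HBO 2 was near the top. *Batf3* was not called, with a log2 fold change of -0.33 ± 0.31 (SE, adjusted P = 0.732 by edgeR), and without BLM+HBO 2 it was -0.78, past the thresholds and lower. *Irf8*, the interferon regulatory factor required for cDC1 and pDC (ENSMUSG00000041515.10, chromosome 8, 120736358 to 120756694), was at 72.4, 80.6, 60.2 and 83.5 CPM in BLM and at 103.2, 75.4 and 70.8 CPM in BLM+HBO. BLM+HBO 1 alone was above the BLM range. *Irf8* was not called, with a log2 fold change of 0.16 ± 0.16 (SE, adjusted P = 0.741 by edgeR), and the sign turned without BLM+HBO 1 (-0.021).

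*Cd209a* encodes the mouse DC-SIGN homologue, a lectin of cDC2 and monocyte-derived dendritic cells (ENSMUSG00000031494.7, chromosome 8, 3743397 to 3748984, minus strand). Its levels were 2.09, 2.99, 4.01 and 7.21 CPM in BLM and 6.65, 7.28 and 10.5 CPM in BLM+HBO. Only BLM 4 reached the BLM+HBO range, and BLM+HBO 3 was the highest of the 7. The means of 4.08 ± 2.23 CPM (SD, n = 4) and 8.14 ± 2.06 CPM (SD, n = 3) gave a called log2 fold change of 0.998 ± 0.38 (SE), with adjusted P = 0.439 by edgeR and adjusted P from 0.143 to 0.802 by the other fits. The direction held with each mouse left out, between 0.77 and 1.43. The call held in 3 of those 7 fits, and was lost without BLM 1 (0.78), BLM 2 (0.88), BLM 3 (0.99) or BLM+HBO 3 (0.77).

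Its closest paralogs, the other *Cd209* genes of mouse, were near the limit of detection, with at most 79 reads in any mouse. *Cd209c* had 6, 9, 21 and 20 reads in BLM and 13, 51 and 79 in BLM+HBO. It was called higher with a log2 fold change of 1.42 ± 0.56 (SE, adjusted P = 0.441 by edgeR, and 0.206 to 0.802 over the other fits). BLM+HBO 1 lay among the BLM mice, and the call held in 3 of the 7 fits with a mouse left out, being lost without either of BLM 1 (1.17) and BLM 2 (1.27) and without either of BLM+HBO 2 (1.27) and BLM+HBO 3 (1.04). *Cd209d* (0.21 ± 0.48, SE) and *Cd209f* (-0.36 ± 0.90, SE) were not called, and the sign of each turned in some fit with a mouse left out. *Cd209b*, *Cd209e* and *Cd209g* did not pass the filter on low counts. None of the 100-base exon stretches of *Cd209a* occurs in another gene, whereas *Cd209c* shares 98 of 2245 with other genes, and *Cd209f* and *Cd209g* share 467 of theirs with each other.

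The lineage genes *Flt3* and *Zbtb46* showed small differences. *Flt3*, the receptor tyrosine kinase that dendritic cell precursors need (ENSMUSG00000042817.15, chromosome 5, 147330741 to 147400489), was at 7.65, 8.62, 8.57 and 11.6 CPM in BLM and at 14.4, 8.42 and 9.38 CPM in BLM+HBO. BLM+HBO 1 was highest and BLM+HBO 2 and 3 lay inside the BLM range. On the log2 scale the fold change was 0.23 ± 0.23 (SE, adjusted P = 0.747 by edgeR), and -0.033 without BLM+HBO 1. *Zbtb46*, a transcription factor that separates conventional dendritic cells from other myeloid cells (ENSMUSG00000027583.13, chromosome 2, 181387762 to 181459426), was at 31.4, 32.8, 30.3 and 38.5 CPM in BLM and at 38.0, 39.9 and 37.3 CPM in BLM+HBO. The 3 BLM+HBO mice lay close together at the top of the BLM range, where only BLM 4 reached them. Its log2 fold change was 0.21 ± 0.12 (SE, adjusted P = 0.544 by edgeR), and it stayed between 0.17 and 0.29 whichever mouse was left out.

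Of the pair of maturation genes, *Ccl22* was called higher and *Fscn1* was not called, and BLM+HBO 2 had the highest level of the 7 mice for both. *Ccl22*, a chemokine of mature dendritic cells and activated macrophages that draws CCR4-bearing T cells (ENSMUSG00000031779.3, chromosome 8, 94745590 to 94751699), was at 12.9, 11.7, 14.2 and 17.6 CPM in BLM and at 27.7, 31.1 and 13.0 CPM in BLM+HBO. BLM+HBO 1 and 2 were above every BLM mouse and BLM+HBO 3 lay inside the BLM range, where for *Clec9a* it was BLM+HBO 2. With a log2 fold change of 0.76 ± 0.28 (SE) it was called higher, with adjusted P = 0.426 by edgeR and adjusted P from 0.0740 to 0.802 by the other fits. The call held in 4 of the 7 fits with a mouse left out, and was lost without BLM 2 (0.68), BLM+HBO 1 (0.64) or BLM+HBO 2 (0.53). Its receptor gene *Ccr4* (0.29 ± 0.42, SE) was not called. *Ccl17*, the neighbouring chemokine that shares this receptor, was not called either (0.30 ± 0.36, SE), and its sign turned in the fits with a mouse left out (-0.39 to 0.58).

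*Fscn1* encodes fascin, the actin-bundling protein of the long processes of mature dendritic cells (ENSMUSG00000029581.14, chromosome 5, 142960343 to 142973185). It was at 110.5, 109.5, 111.2 and 110.4 CPM in BLM, the narrowest spread of the 10 genes, and at 70.7, 117.3 and 75.1 CPM in BLM+HBO. BLM+HBO 1 and 3 fell below all BLM mice, whereas BLM+HBO 2 exceeded them all. The log2 fold change of -0.33 ± 0.17 (SE) was not called (adjusted P = 0.509 by edgeR). Without BLM+HBO 2 it was -0.60 and lower past the thresholds (adjusted P = 0.0422, edgeR), and over the other fits adjusted P reached 0.828. Fibroblast markers, which were not dendritic cell genes, had the same 2 mice lowest, with summed levels of 1887, 6331 and 3315 CPM in BLM+HBO 1 to 3 and 5888 to 9714 CPM in BLM (5 of 6 markers called lower, the highest *Col3a1*, *Col1a1* and *Col1a2*, none at 0). The part of fibroblasts in the *Fscn1* values was not tested.

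*Siglech*, the sialic acid-binding receptor of mouse pDC (ENSMUSG00000051504.18, chromosome 7, 55768178 to 55778925), had the largest log2 fold change of the 10 and the fewest reads. Between 16 and 125 reads were counted per mouse, giving 0.881, 1.24, 0.988 and 3.63 CPM in BLM and 6.65, 2.82 and 3.04 CPM in BLM+HBO. BLM 4 stood apart from the other BLM mice and exceeded BLM+HBO 2 and 3. It was called higher, with a log2 fold change of 1.29 ± 0.53 (SE), adjusted P = 0.452 by edgeR and adjusted P from 0.160 to 0.810 by the other fits. It was called in 3 of the 7 fits with a mouse left out. The log2 fold change was 1.999 without BLM 4, and the call was lost without BLM 1 (1.08), BLM 2 (1.17), BLM 3 (1.11) or BLM+HBO 1 (0.79).

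**Figure D2:**
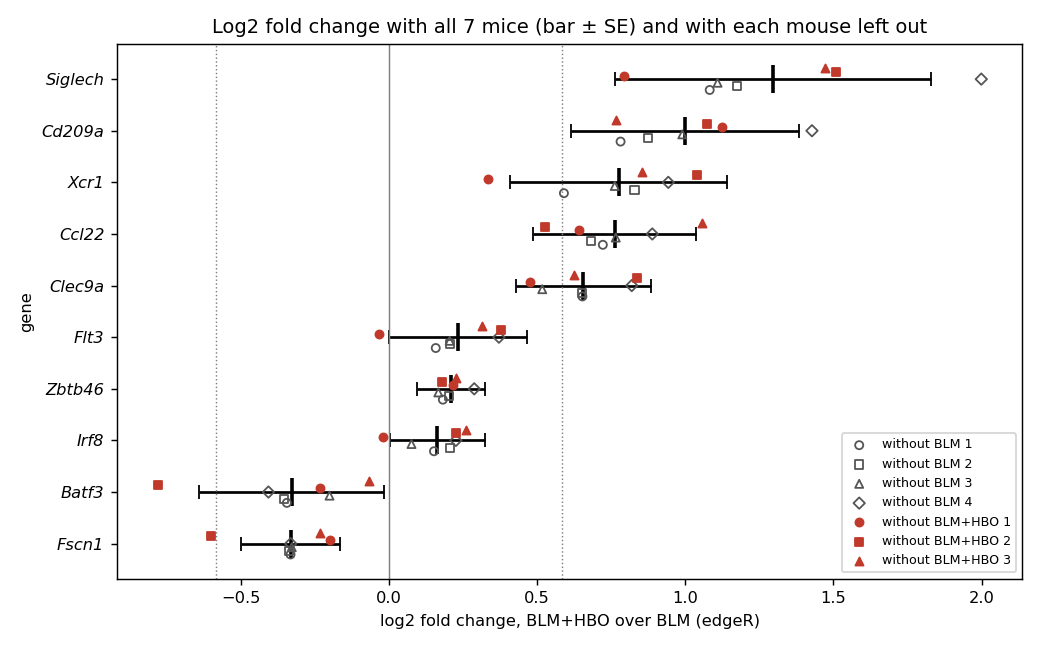
Log2 fold change (BLM+HBO over BLM, edgeR) of the 10 genes with all 7 mice (bar, whiskers of 1 SE) and with each mouse left out (open grey symbols for BLM, red symbols for BLM+HBO). Dotted lines mark a fold change of 1.5. The symbols of *Flt3* and *Irf8* cross 0 without BLM+HBO 1, and those of *Batf3* and *Fscn1* move farthest down without BLM+HBO 2.

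The mice differed in which genes were high. BLM 4 had the highest BLM level for 8 of the 10 genes, all but *Fscn1* and *Batf3*, and BLM 1 the lowest level of the 7 mice for 4. BLM+HBO 1 had the highest level of all 7 mice for 5 genes, BLM+HBO 2 for *Zbtb46*, *Fscn1* and *Ccl22*, and BLM+HBO 3 for *Cd209a*. Left out in turn, the 7 mice gave between 1 and 6 called genes of the 10. A single gene was called without BLM 2 (*Clec9a*), without BLM 3 (*Ccl22*) and without BLM+HBO 1 (*Cd209a*), and 2 without BLM 1 (*Clec9a* and *Ccl22*). In these 4 fits 4.99%, 7.44%, 3.70% and 4.09% of all genes were called in either direction. Without BLM 4 there were 5, the 4 genes and *Xcr1* (7.08% of all genes), and without BLM+HBO 3 there were 3, *Clec9a*, *Ccl22* and *Siglech* (4.95%). Without BLM+HBO 2 there were 6, namely *Xcr1*, *Clec9a*, *Cd209a* and *Siglech* higher and *Fscn1* and *Batf3* lower, and 10.7% of all genes were called.

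Other genes of the same lineages were taken from 5 lists, with 64 of 70 genes tested. They held 7 genes called higher and 1 called lower (12.5%, beside 6.29% of all genes), and their median log2 fold change was 0.12. Of the 64, 43 were positive and 21 negative. The cDC1 list had 0 of 12 called higher and 1 lower, with 9 of 12 positive. *Itgae*, the integrin CD103 of lung cDC1, was at 9.80, 8.85, 10.8 and 11.1 CPM in BLM and 17.8, 12.9 and 12 CPM in BLM+HBO. It was higher without overlap but under the fold limit (log2 fold change 0.49 ± 0.18, SE, adjusted P = 0.436 by edgeR). *Cadm1*, an adhesion molecule (0.38 ± 0.17, SE), and *Wdfy4*, which cDC1 need for cross-presentation (0.37 ± 0.16, SE), likewise passed the P limit before adjustment but not the fold limit. In BLM *Cadm1* was at 15.8 ± 2.80 RPKM (SD, n = 4), above *Clec9a* at 6.21 ± 1.58 RPKM. The part of other cells in the values of *Itgae*, *Cadm1* and *Wdfy4* was not tested. The lower gene of the cDC1 list was *Nfil3*, a transcription factor early in cDC1 development that is also induced in many other cells. It was at 21.2, 17.5, 24.8 and 34.6 CPM in BLM and 9.42, 15.4 and 15.4 CPM in BLM+HBO, with no overlap (log2 fold change -0.87 ± 0.26, SE, adjusted P = 0.423 by edgeR, and 0.0238 to 0.802 over the other fits). The lowest of these came with no filter on low counts, and DESeq2 gave an adjusted P of 0.0918. The cDC2 list had 1 of 11 called higher, *Cd209c*, with 7 positive and 4 negative. Among the negative ones, *Sirpa* passed the P limit before adjustment but not the fold limit (-0.35 ± 0.16, SE, adjusted P = 0.468 by edgeR). Of the mature genes 1 of 16 was called higher, of the pDC genes 2 of 11, and of the ligands, receptors and regulators 3 of 14, with none called lower in these lists.

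*Flt3l*, the growth factor for which *Flt3* is the receptor, was higher in BLM+HBO without overlap. It was at 8.31, 13.0, 20.4 and 18.0 CPM in BLM and at 28.6, 24.4 and 29.2 CPM in BLM+HBO, so that each BLM+HBO mouse exceeded each BLM mouse. Its log2 fold change was 0.88 ± 0.26 (SE), with adjusted P = 0.423 by edgeR and adjusted P from 0.0227 to 0.802 by the other fits, and it was called whichever mouse was left out. The lowest of these came with no filter on low counts, and DESeq2 gave an adjusted P of 0.103. The gene model of *Flt3l* overlaps another on the same strand over 856 bases, and 84.1% of its 100-base exon stretches occur in no other gene. *Xcl1*, the ligand of XCR1, had 0, 5, 4 and 11 reads in BLM and 13, 19 and 12 in BLM+HBO and was not called (adjusted P = 0.550 by edgeR), and an antisense gene overlaps it. *Csf2*, a growth factor of monocyte-derived dendritic cells, was not called (-0.36 ± 0.52, SE), and its sign turned without BLM+HBO 1.

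Among the maturation genes, *Apol7c*, which cDC1 induce on activation, was called higher with each mouse left out. It was at 1.21, 1.63, 2.14 and 1.79 CPM in BLM and at 5.32, 4.45 and 3.15 CPM in BLM+HBO, with no overlap (log2 fold change 1.34 ± 0.30, SE, adjusted P = 0.423 by edgeR, and 0.0183 to 0.802 over the other fits, the lowest with DESeq2). *Ccr7*, the receptor that guides mature dendritic cells to the lymph node, was at 12.5, 9.92, 15.3 and 22.0 CPM in BLM and at 31.2, 25.4 and 14.8 CPM in BLM+HBO. As for *Ccl22*, BLM+HBO 1 and 2 were above all BLM mice and BLM+HBO 3 among them, and *Ccr7* was not called (0.67 ± 0.30, SE, adjusted P = 0.469 by edgeR). *Il12b*, a subunit of interleukin-12, was not called (0.55 ± 0.71, SE).

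Of the pDC genes, *Cox6a2* and *Spib* were called higher with each mouse left out, and without overlap. *Cox6a2* was at 2.48, 5.92, 3.95 and 6.84 CPM in BLM and at 23.3, 14.4 and 12.3 CPM in BLM+HBO (1.79 ± 0.35, SE, adjusted P = 0.423 by edgeR, and 0.000402 to 0.802 over the other fits, the lowest with no filter on low counts). It is also the heart and muscle isoform of its respiratory subunit, and heart muscle markers were called higher too, 7 of 7 (the highest *Myh6*, *Tnnt2* and *Actc1*, none at 0), with summed levels of 58.8 to 168 CPM in BLM and 629, 506 and 150 CPM in BLM+HBO 1 to 3. *Spib*, a transcription factor of pDC and of B cells, was at 7.05, 8.85, 7.30 and 11.7 CPM in BLM and at 17.2, 15.2 and 14.0 CPM in BLM+HBO (0.83 ± 0.20, SE, adjusted P = 0.423 by edgeR, and 0.0378 to 0.802 over the other fits, the lowest with DESeq2). The parts of heart muscle and of B cells in these values were not tested. The more abundant pDC genes *Tcf4* (-0.11 ± 0.14, SE) and *Bst2* (0.11 ± 0.15, SE) were not called.

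Among the regulators and shared genes, *H2-DMb2*, which helps to load peptides onto MHC class II (0.65 ± 0.17, SE, adjusted P = 0.423 by edgeR), and *Dnase1l3*, a secreted nuclease of dendritic cells and macrophages (1.40 ± 0.44, SE, adjusted P = 0.423 by edgeR), were called higher without overlap. The call of *H2-DMb2* was lost without BLM 1 (0.57) or BLM+HBO 1 (0.47), and that of *Dnase1l3* without BLM+HBO 1 (0.96). Reads of *Dnase1l3* were few, at 11, 19, 35 and 29 in BLM and 98, 47 and 73 in BLM+HBO. B cells also make *H2-DMb2*, and it shares 179 of its 1741 exon stretches with *H2-DMb1*. *Itgax*, which encodes CD11c and is made by dendritic cells and alveolar macrophages alike, was at 75.7, 99.5, 165 and 157 CPM in BLM and at 125, 209 and 128 CPM in BLM+HBO. The groups overlapped widely (0.31 ± 0.28, SE, adjusted P = 0.723 by edgeR). *Irf4*, a transcription factor of cDC2, was not called (0.10 ± 0.28, SE), and its sign turned without BLM 3 (-0.047) and without BLM+HBO 1 (-0.041).

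**Figure D3:**
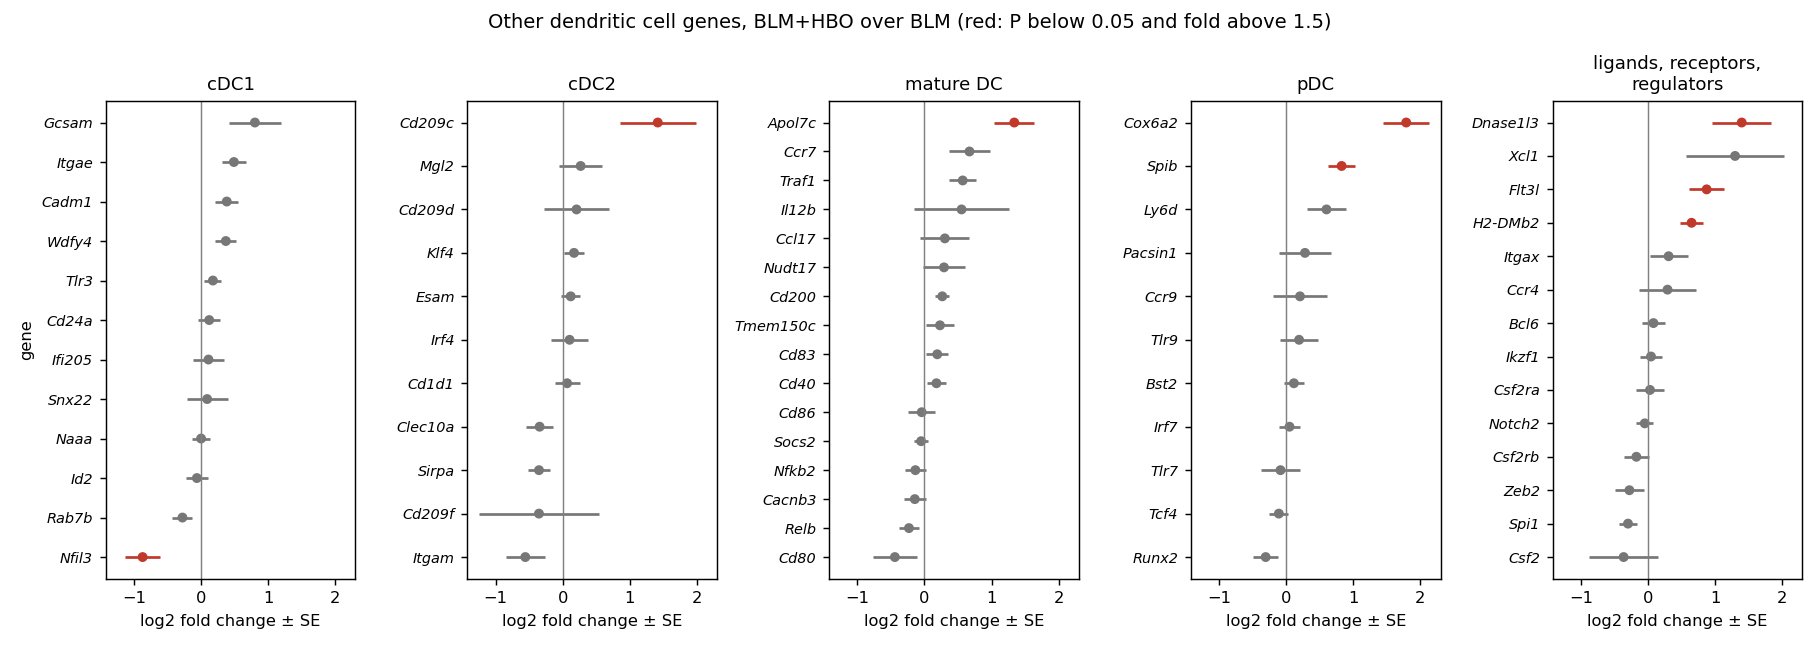
Log2 fold change (BLM+HBO over BLM, edgeR) with whiskers of 1 SE for the 64 tested genes of the other dendritic cell lists, in red where the unadjusted P is below 0.05 and the fold change above 1.5. The 7 genes called higher are spread over 4 of the 5 lists, and the 1 called lower is *Nfil3*.

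Among markers of other immune cells, those of B cells and NK cells were called higher, and *Ptprc* and the T cell markers were not called. *Ptprc*, which encodes the leukocyte antigen CD45, was at 143, 116, 111 and 141 CPM in BLM and at 260, 155 and 115 CPM in BLM+HBO, highest in BLM+HBO 1 (0.47 ± 0.24, SE, adjusted P = 0.517 by edgeR). B cell markers were called higher for 6 of 7 genes (the highest *Cd79b*, *Cd79a* and *Cd22*), with summed levels of 76.2 to 139 CPM in BLM and 133 to 266 CPM in BLM+HBO. NK cell markers were called higher for 6 of 7 genes (the highest *Gzma*, *Prf1* and *Klrb1c*), with summed levels of 6.28 to 23.5 CPM in BLM and 22.0 to 85.6 CPM in BLM+HBO. In both lists BLM 4 was the highest BLM mouse and BLM+HBO 1 the highest of all 7, as for *Clec9a* and *Siglech*. T cell markers had 0 of 8 called, with summed levels of 47.8 to 76.6 CPM in BLM and 52.0 to 117 CPM in BLM+HBO. All 8 had a positive log2 fold change, with a median of 0.43, beside 0.44 for the 10 dendritic cell genes. No marker of these 3 lists was at 0 in any mouse.

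Most markers of monocytes and interstitial macrophages went the other way (6 negative and 2 positive log2 fold changes, 5 of 8 called lower). The highest, which weigh most in the sum, were *C1qa*, *C1qb* and *C1qc*, and none of the 8 was at 0. Summed levels were 1021 to 1640 CPM in BLM and 573 to 995 CPM in BLM+HBO. Alveolar macrophage markers had 1 of 7 called higher and 2 lower (656 to 2058 CPM summed in BLM and 617 to 776 CPM in BLM+HBO, with 1 marker at 0 in some mouse). Of these 7, 5 had a positive and 2 a negative log2 fold change, with a median of 0.29. The highest, which weigh most in the sums, were *Chil3*, *Car4* and *Ear2*. Neutrophil markers had 0 of 6 called (163 to 225 CPM and 101 to 486 CPM), plasma cell markers 0 of 5 (1087 to 1445 CPM and 734 to 1088 CPM) and endothelial markers 0 of 6 (2025 to 2790 CPM and 2448 to 3030 CPM). The highest plasma cell markers were *Sdc1*, *Jchain* and *Xbp1*, and 1 of the 5 was lower without overlap (4.72% of all tested genes). Of 6 markers of lymphoid tissue, *Cr2* was called higher and *Cxcl13* lower, the other 4 did not pass the filter, and *Ccl21a*, *Ccl19* and *Glycam1* were at 0 in some mice (15.2 to 31.7 CPM summed in BLM and 13.5 to 23.7 CPM in BLM+HBO). The part of any of these cells in the dendritic cell values was not tested.

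Set against *Ptprc*, each of the 4 called genes exceeded the BLM range in 1 BLM+HBO mouse, where in CPM *Clec9a*, *Cd209a* and *Ccl22* had done so in 2 and *Siglech* in 1. Per 100 reads of *Ptprc*, *Clec9a* was at 12.8 to 19.1 in BLM and at 15.3, 15.2 and 29.1 in BLM+HBO, so that only BLM+HBO 3 was above the BLM range. *Cd209a* was at 1.47 to 5.12 in BLM and at 2.56, 4.69 and 9.15 in BLM+HBO. *Ccl22* was at 9.04 to 12.8 in BLM and at 10.7, 20.0 and 11.3 in BLM+HBO, and *Siglech* at 0.618 to 2.58 in BLM and at 2.56, 1.82 and 2.65 in BLM+HBO. The mouse above the range was BLM+HBO 2 for *Ccl22* and BLM+HBO 3 for the others, with *Siglech* just above it. *Fscn1* was the 1 gene of the 10 whose groups did not overlap on this scale, at 77.5 to 100.4 in BLM and at 27.2, 75.6 and 65.5 in BLM+HBO, where 6.25% of all tested genes were lower without overlap and 6.73% did not overlap in either direction. These ratios are descriptions and were not tested.

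**Figure D4:**
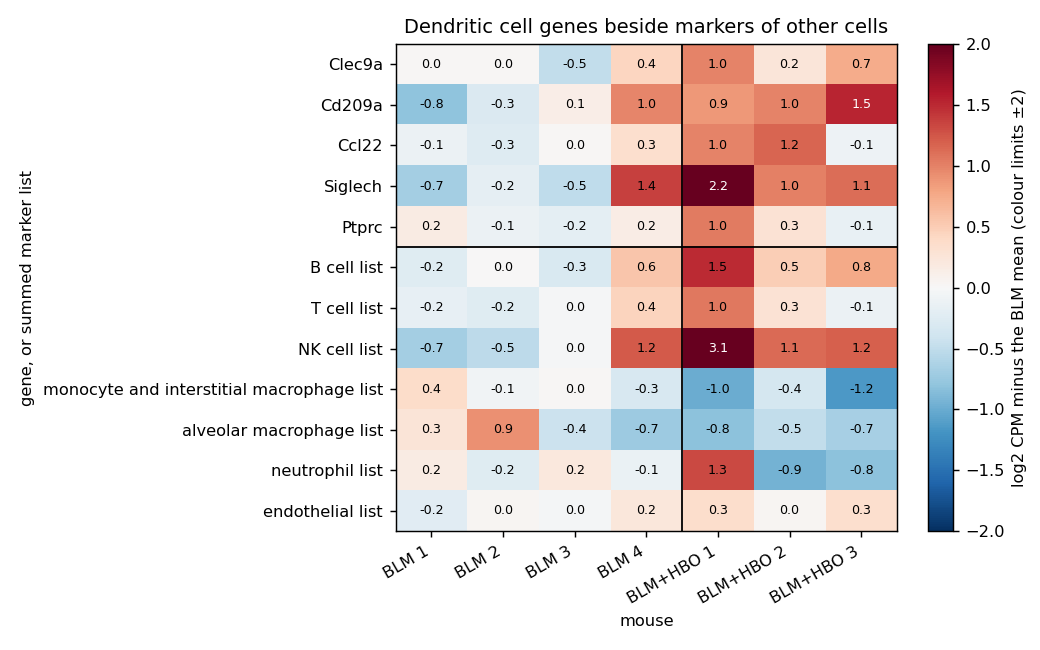
Log2 CPM minus the mean log2 CPM of the BLM mice for the 4 called genes, *Ptprc* and the summed marker lists of other cells in each mouse. Colours are limited to ±2 and values are printed in the cells. BLM+HBO 1 is the column with the highest *Ptprc*, B cell, T cell and NK cell values, and the monocyte and interstitial macrophage list is lower in all 3 BLM+HBO mice than the BLM mean.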

How the data were processed

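RNA of the right lung lobes of 4 BLM and 3 BLM+HBO mice was sequenced by the authors with a NEBNext Ultra library kit. Per the labels and the supplementary methods, reads were trimmed, mapped to GRCm38 with HISAT2 and counted per gene with featureCounts, and the deposited values are raw read counts without normalization. At its default settings featureCounts ignores the strand and drops multi-mapping reads and those that fall on more than 1 gene, so genes with shared or overlapping exons are undercounted. The release of the annotation is not given in the sources used here. Symbols came from GENCODE vM21, which matched 55141 of 55401 genes.

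Groups came from the sample titles, and nothing says that equal numbers pair mice. Genes were kept by filterByExpr (minimum count 10, minimum total 15), normalized by TMM (factors 0.964 to 1.036) and tested in edgeR 4.0.16 (R 4.3.3) with the quasi-likelihood test, with BLM as the reference and all 17465 genes in 1 fit. The P-values are two-sided, adjusted by Benjamini-Hochberg over all tested genes. The common biological coefficient of variation was 0.222. RPKM used the exon length in the deposited table. As a check of the code, edgeR, DESeq2 and limma-trend were run on simulated counts with 200 changed genes. These counts were drawn independently for each gene, unlike genes that vary together across mice, so the check cannot speak for the calls here. DESeq2 1.42.0, limma-trend (limma 3.58.1), RLE and upper-quartile factors, no filter, a filter of 1 CPM in 3 mice, a replicate block, a P limit of 0.01, a fold change above 2 and each mouse left out were the alternatives. Sequences came from RefSeq on GRCm38.p6. Depth limits the precision of genes with few reads, such as *Siglech*.

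The 10 genes, the lists and the tests were chosen with earlier results of these data known, so no list is independent evidence. All 10 genes are named. From the 5 other dendritic cell lists up to 5 called genes each with the smallest P were named, and, whatever their values, *Flt3l*, *Csf2*, *Xcl1*, *Ccr4*, *Ccl17*, *Ccr7*, *Itgax*, *Irf4*, *Il12b*, the *Cd209* family and *Ptprc*. From the lists of other cells up to 3 genes of the highest level were named. *Tcf4* and *Bst2*, named as the most abundant pDC genes, and *Itgae*, *Cadm1*, *Wdfy4*, *Sirpa*, *Cr2*, *Cxcl13*, *Ccl21a* and *Glycam1* were chosen after their values were seen.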

Additional observations from a re-analysis of the deposited data

How the results depend on the processing

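With all 7 mice, 4 of the 10 dendritic cell genes, 8 genes of the other dendritic cell lists and 1098 of all tested genes were past the thresholds. Leaving out 1 mouse in turn gave 1 to 6 of the 10 (6 without BLM+HBO 2), 6 to 12 of the other lists and 659 to 1914 of all genes. After adjustment it gave 0 to 1 of the 10 and 0 to 267 of all genes, where edgeR with all mice called 0. The log2 fold change of *Flt3* ran from -0.033 to 0.38 and that of *Irf8* from -0.021 to 0.26, both negative only without BLM+HBO 1. A P limit of 0.01 left 0 of the 10 and 319 of all genes. A fold change above 2 left 1 of the 10 (*Siglech*), 4 of the other lists and 509 of all genes. Without a filter on low counts the 32896 genes with a read were tested, with 1940 past the thresholds and 387 after adjustment. DESeq2 called 1173 of all genes at the thresholds and 128 after adjustment. DESeq2 and the fit without a filter each called 5 of the 10, with *Xcr1* the added gene. Limma-trend, RLE factors, upper-quartile factors and the filter of 1 CPM in 3 mice each called 4 of the 10. In that order, 1167, 1090, 1108 and 978 of all genes were called in these fits. Over the 10 single genes, leaving aside the stricter P and fold limits, 2 of the values turned sign, 13 lost and 6 gained a call and 119 did neither. The causes were not tested.

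The replicate numbers only name mice. The deviations of same-numbered mice correlated by -0.008, -0.066 and 0.161. Of these BLM mice, only BLM 3 had the BLM+HBO mouse of its own number as its best match. A replicate block could use only the numbers shared by both groups, so BLM 4 was left out. With this block 4 of the 10, 12 of the other lists and 1253 of all genes were past the thresholds. Without BLM 4 and with no block, these counts were 5, 12 and 1220.

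The 3 BLM+HBO mice, of which 1 lay beside the BLM mice on the first component, limit what can be said of any gene here. So do the low reads of *Siglech*, *Xcr1*, *Dnase1l3*, *Apol7c* and the *Cd209* genes. Whether levels differ per cell or by cell number cannot be read from tissue RNA.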
